A study of Mus musculus with 2 samples.

Results

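The immediate early transcription factors described here are 10 genes, Egr1, Egr3, Fos, Fosb, Jun, Junb, Jund, Nr4a1, Ier2 and Atf3, chosen by their symbols from the 56748 genes of each count matrix. All 10 were present in the files, each with 1 entry. They were measured by droplet-based 3′ single-cell RNA sequencing in lineage-depleted bone marrow of C57BL/6 mice, in 1 wild-type (WT) library and 1 library labelled Nat10 cKO, a conditional knockout of the RNA acetyltransferase gene Nat10. The series text speaks of 5 mice, but no label ties a cell to a mouse, and the Cre driver, the deleted part of Nat10 and the age of the animals are not given in the sources used here. Since each genotype has 1 library, the genotypes could not be tested against each other: every difference below is between these 2 libraries, and 95% intervals cover counting error only.

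Immediate early genes are transcribed within minutes of a signal, from factors already present in the cell, and their short-lived RNAs and proteins carry the signal to later genes. Fos and Jun family proteins pair through leucine zippers to form AP-1, Egr proteins are zinc-finger factors, and Nr4a1 is an orphan nuclear receptor. In blood stem cells Egr1 and the Nr4a receptors are known for a role in keeping cells quiescent, and tissue dissociation is known to switch the same genes on.

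After filtering and doublet removal the WT library held 11945 cells with 262788089 UMIs (unique molecular identifiers, counted transcripts), a median of 18315 per cell. The cKO library held 10695 cells with 253860830 UMIs, a median of 21450. Clusters were named from marker lists, with "-like" added because no surface protein was measured, and 11 classes had at least 100 cells in both libraries. Although the labels say lineage-negative, these included erythroblast-like, T, NK and innate lymphoid-like and plasma-like cells. The libraries shared 67 barcodes, 0.423% of the WT and 0.497% of the cKO barcodes. Nat10 stood at 47.1 CPM (the UMIs of a gene summed over cells and scaled to 1000000 UMIs of the same cells) over all WT cells and at 38.7 CPM over all cKO cells, and 10 of 11 classes had less of it in the cKO library, the exception being stromal and endothelial-like cells (log2 ratio 0.05). Since 3′ tags may lie outside the deleted part, this level does not check the genotype labels.

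The 10 genes were very unevenly used across the marrow. In the WT library their summed level was highest in basophil and mast-like cells, at 6362 CPM, followed by T, NK and innate lymphoid-like cells at 5993 CPM and plasma-like cells at 4096 CPM. Megakaryocyte-like cells held 2416 CPM, lymphoid progenitor-like cells 1856 CPM and HSC/MPP-like cells (of stem and multipotent progenitor character) 1831 CPM, and the last pair had neighbouring values. Monocyte-like cells held 1534 CPM, stromal and endothelial-like cells 1246 CPM and neutrophil progenitor-like (GMP-like) cells 795 CPM. The erythroid classes were at the bottom, with 337 CPM in erythroid progenitor-like and 290 CPM in erythroblast-like cells.

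In the cKO library the summed level was lower in 9 of the 11 classes and higher in T, NK and innate lymphoid-like and plasma-like cells. The sign turned in erythroid progenitor-like cells (−0.040 to 0.039) under TMM or median-of-ratios scaling, which set the typical gene to no change, and in T, NK and innate lymphoid-like cells (0.26 to −0.21) with the cKO clusters weighed by the WT mix. In that library HSC/MPP-like cells held 1061 CPM, megakaryocyte-like cells 1121 CPM, lymphoid progenitor-like cells 1251 CPM and monocyte-like cells 979 CPM. Basophil and mast-like cells held 5384 CPM, T, NK and innate lymphoid-like cells 7191 CPM and plasma-like cells 5493 CPM. Stromal and endothelial-like cells held 829 CPM, GMP-like cells 649 CPM, erythroid progenitor-like cells 328 CPM and erythroblast-like cells 229 CPM. Over all kept cells together all 10 genes were lower in the cKO library, beside 61.3% of 21256 genes, though with every cell weighed alike Egr3 (0.11) and Junb (0.14) were higher. Nr4a1 (−1.58) and Atf3 (−1.35) were the 2 at −1 or less, beside 4.05% (1 with the WT mix of clusters). The order of the classes was much alike in both libraries for each gene: across the 11 classes, Pearson's r between the WT and cKO log2 levels ran from 0.93 for Egr1 to 0.98 for Junb, as a description over cells of the same pair of libraries.

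**Figure D1:**
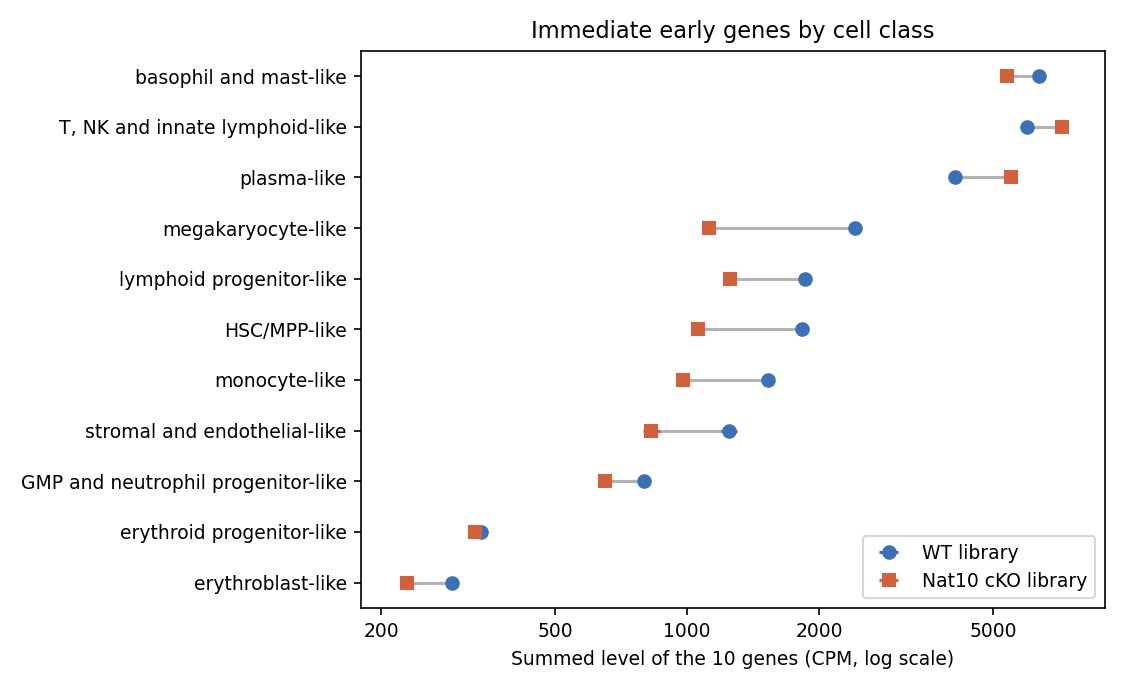
Summed level of the 10 immediate early genes in each of the 11 cell classes, in CPM on a log scale, with circles for the WT and squares for the Nat10 cKO library and bars for the 95% counting interval. The squares lie left of the circles in 9 classes and right of them in T, NK and innate lymphoid-like and plasma-like cells.

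Among the 11 compared classes the members differed in which held most of them. Egr1, Jun and Ier2 were highest in basophil and mast-like cells in both libraries, Egr1 at 500 CPM in WT and 373 CPM in cKO cells. Fosb, Junb, Jund and Nr4a1 were highest in T, NK and innate lymphoid-like cells in both libraries, Junb at 1700 and 1745 CPM. Egr3 was highest in plasma-like cells, at 30.5 and 23.3 CPM. Fos peaked in basophil and mast-like cells of the WT library (856 CPM) and in plasma-like cells of the cKO library (1123 CPM). WT plasma-like cells, at 843 CPM, had an interval that overlapped that of WT basophil and mast-like cells. Atf3, a stress-induced factor that pairs with Jun proteins, peaked in WT monocyte-like cells (77.3 CPM) and in cKO T, NK and innate lymphoid-like cells (51.0 CPM). Outside the 11 classes, conventional dendritic-like cells, 67 in WT and 27 in cKO, held more Atf3, at 204 and 118 CPM, and in the cKO library more Egr3, at 57.6 CPM from 20 UMIs.

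HSC/MPP-like cells, numbering 713 (WT) and 473 (cKO), had lower levels of each measured member in cKO cells. Of the 10 genes, 9 had the 50 UMIs needed to be counted as measured, and 9 of these 9 had a log2 ratio of cKO over WT below 0, beside 66% of the 13172 genes measured in these cells. A log2 ratio of −1 or less was found for 4 of the 9, Egr1, Nr4a1, Atf3 and Fos, beside 4.56% of all genes. This count was 2 when clusters were named without a rule on leading markers, and 3 under TMM scaling (Fos at −0.90). The median log2 ratio was −0.98 over the 9 members and −0.17 over all genes. For the summed level the log2 ratio was −0.79 (interval −0.81 to −0.76). Scaled so that the typical gene does not move (TMM scaling), ratios in these cells shift upward by 0.17 and all 9 stayed below 0.

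Egr1 and Nr4a1 stood furthest apart. Egr1 was at 98.6 CPM in WT and 18.1 CPM in cKO cells, from 1867 and 258 UMIs, a log2 ratio of −2.44 (interval −2.64 to −2.26). Only 27 of the 13172 genes, 0.205%, had a lower ratio. The class pooled a cluster of 515 WT and 236 cKO cells with one of 198 and 237 that held little Egr1, both described below. In neither cluster alone was the Egr1 ratio as low, and the part of their mix in the pooled ratio was not tested. When clusters were named without the rule on leading markers, the Egr1 ratio of the class was −1.23. Nr4a1 was at 54.4 CPM in WT and 13.6 CPM in cKO cells, a log2 ratio of −1.99 (interval −2.23 to −1.77), with 68 genes (0.516%) below it. Egr3, a zinc-finger relative of Egr1, was found in 37 UMIs in WT and 9 UMIs in cKO cells, too few to be counted as measured.

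Among the AP-1 genes the Fos family and Atf3 differed more than the Jun family. Fos was at 314 CPM in WT and 149 CPM in cKO cells, a log2 ratio of −1.07. Fosb, which pairs with Jun proteins as Fos does, went from 196 CPM in the WT to 99.4 CPM in cKO cells, a log2 ratio of −0.98. Atf3 was at 37.2 and 15.2 CPM, a log2 ratio of −1.29 (interval −1.52 to −1.07). The Jun family supplies the other partner of AP-1, and its members had smaller ratios whose intervals lay above those of Fos and Fosb. Jun was at 579 CPM in WT and 392 CPM in cKO cells (−0.56). Jund, the member least dependent on stimulation, was at 246 and 158 CPM (−0.64), and Junb was at 137 and 95.8 CPM (−0.52). Ier2, a small nuclear protein induced along with AP-1, was at 168 and 119 CPM (−0.49).

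**Figure D2:**
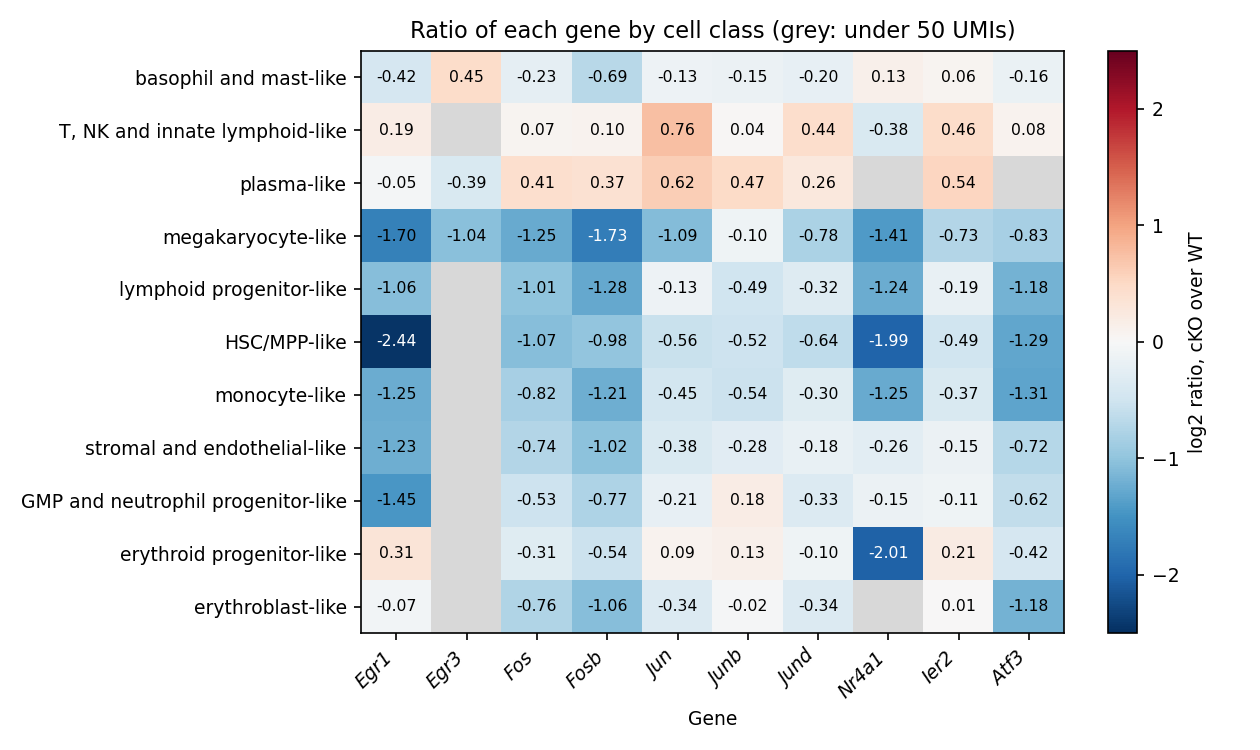
Log2 ratio of cKO over WT for each of the 10 genes (columns) in each of the 11 classes (rows), coloured from lower to higher in cKO cells, with the value printed in each cell and grey for genes under 50 UMIs. In HSC/MPP-like cells the 9 measured genes run from −2.44 for Egr1 to −0.49 for Ier2, and plasma-like and T, NK and innate lymphoid-like cells hold most of the positive values.

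Because 7 of the 10 genes have a promoter window in the RefSeq table for GRCm38.p6, from 250 bases before to 50 bases after the annotated start, these windows were searched on both strands for motifs of factors that drive immediate early transcription. The core of the cyclic AMP response element, TGACG, where CREB and ATF proteins bind, was found in 5 of the 7 windows (Atf3, Fosb, Junb, Fos and Nr4a1), beside 21.0% of the 27025 windows in the table. The whole palindrome TGACGTCA, which contains that core, was in 0 of the 7 and in 1.88% of all windows. An Egr motif, GCGNGGGCG, was in 2 of the 7 (Fosb and Nr4a1) and in 5.55% of all. The AP-1 motif TGANTCA was in 0 of 7 (7.93% of all), the CArG box of serum response factor in 0 of 7 (1.57%), TATAA in 2 of 7 (25.5%), and the GC box GGGCGG, which can overlap the Egr motif, in 5 of 7 (35.9%). GC content was 46.7% in the Jund window and from 58.7% (Fos) to 72.3% (Nr4a1) in the others. The median over all windows was 52.7%, and the part of GC content in these counts was not tested. A match is a description of letters, not a binding site. Egr1, Egr3 and Ier2 were not searched, and a motif not found in a window may lie outside it.

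The windows of the 4 genes with the lowest ratios in HSC/MPP-like cells among those with a window are shown, 5′ to 3′ on the strand of the gene, with each TGACG or its reverse complement CGTCA in capitals. They are chr15:101266596-101266895 on the plus strand for Nr4a1, chr1:191183284-191183583 on the minus strand for Atf3, chr12:85473640-85473939 on the plus strand for Fos and chr7:19309996-19310295 on the minus strand for Fosb. Nr4a1 holds 4 cores, Fos 2, and Atf3 and Fosb 1 each.
Nr4a1: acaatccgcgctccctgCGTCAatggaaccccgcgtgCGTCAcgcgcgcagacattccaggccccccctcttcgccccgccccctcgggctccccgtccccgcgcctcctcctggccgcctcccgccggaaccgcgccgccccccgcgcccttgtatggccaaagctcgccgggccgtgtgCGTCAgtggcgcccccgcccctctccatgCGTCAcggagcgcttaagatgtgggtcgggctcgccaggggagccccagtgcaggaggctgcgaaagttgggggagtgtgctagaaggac
Atf3: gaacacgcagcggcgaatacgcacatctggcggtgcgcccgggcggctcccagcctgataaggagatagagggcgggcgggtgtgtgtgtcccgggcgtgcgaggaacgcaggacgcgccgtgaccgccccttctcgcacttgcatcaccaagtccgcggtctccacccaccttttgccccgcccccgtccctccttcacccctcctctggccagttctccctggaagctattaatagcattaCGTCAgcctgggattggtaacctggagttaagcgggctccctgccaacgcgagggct
Fos: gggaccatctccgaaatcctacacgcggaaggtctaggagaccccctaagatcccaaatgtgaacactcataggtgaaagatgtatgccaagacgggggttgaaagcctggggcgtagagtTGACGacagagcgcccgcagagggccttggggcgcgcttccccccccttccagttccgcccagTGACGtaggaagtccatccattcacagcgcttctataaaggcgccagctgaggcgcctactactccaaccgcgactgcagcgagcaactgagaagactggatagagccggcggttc
Fosb: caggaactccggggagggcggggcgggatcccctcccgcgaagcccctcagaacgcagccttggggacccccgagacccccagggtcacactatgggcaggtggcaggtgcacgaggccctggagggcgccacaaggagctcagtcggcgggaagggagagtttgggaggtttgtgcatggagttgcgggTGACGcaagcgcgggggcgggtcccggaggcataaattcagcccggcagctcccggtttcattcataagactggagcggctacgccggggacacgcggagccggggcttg

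HSC/MPP-like cells fell into 2 clusters, with different ratios in each. The cluster led by Mecom and Hlf, transcription factors of stem cells, held 515 WT and 236 cKO cells. In it the summed level of the 10 genes was 2357 CPM in WT and 1279 CPM in cKO cells, a log2 ratio of −0.88 (interval −0.92 to −0.85). Egr1 was at 152 CPM in WT and 31.4 CPM in cKO cells (−2.27), Nr4a1 at 82.6 and 22.3 CPM (−1.88), Atf3 at 44.8 and 16.9 CPM (−1.40) and Fos at 397 and 185 CPM (−1.10). All 9 genes with at least 50 UMIs were lower in cKO cells in this cluster, beside 62.7% of 12006 genes.

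The cluster led by Cd34, a surface marker of progenitors, held 198 WT and 237 cKO cells. Its summed level was 945 CPM in WT and 879 CPM in cKO cells, a log2 ratio of −0.11 (interval −0.15 to −0.06). Egr1 was low in both libraries, at 9.50 CPM in WT and 6.97 CPM in cKO cells, and its interval, −0.99 to 0.09, held 0. Of the 9 measured members 6 were lower, beside 63.0% of 10768 genes, 3 of them with intervals below 0. Fos was at 174 CPM in WT and 119 CPM in cKO cells (−0.54), Fosb at 111 and 67.8 CPM (−0.72) and Atf3 at 24.5 and 13.7 CPM (−0.84). Junb was higher in cKO cells, at 59.0 CPM in WT and 85.6 CPM in cKO cells (0.54, interval 0.36 to 0.72). The difference between the clusters was not tested. A further cluster led by Pdzph1, Kif26b and Slc22a3, with 386 WT and 308 cKO cells, was left unnamed because none of its leading genes was a marker, a rule made once the clusters were known. In it Egr1 was at 152 CPM in WT and 117 CPM in cKO cells (−0.38); counting it as HSC/MPP-like brings the Egr1 ratio of the class to −1.23 and that of the summed level to −0.61.

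**Figure D3:**
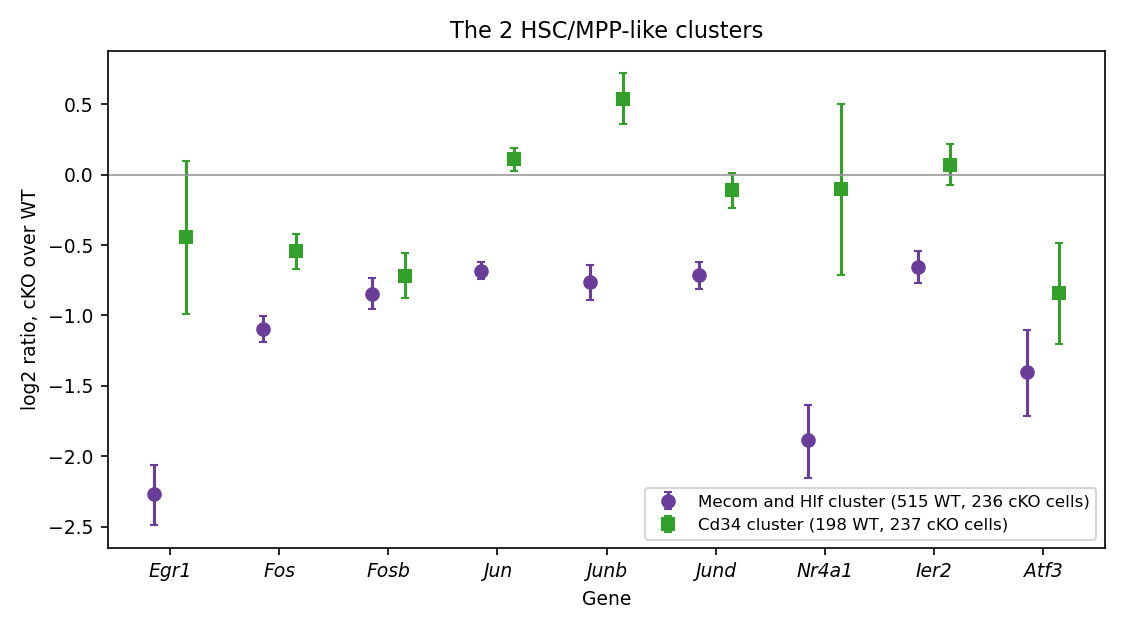
Log2 ratio of cKO over WT for each of the 9 measured genes in the 2 clusters of HSC/MPP-like cells, circles for the cluster led by Mecom and Hlf and squares for the cluster led by Cd34, with 95% counting intervals and a line at 0. All 9 circles lie below 0, from −2.27 for Egr1 to −0.66 for Ier2, while the squares for Junb and Jun lie above 0 with their intervals and those for Egr1, Jund, Nr4a1 and Ier2 have intervals that hold 0.

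Most stem cell markers were lower together with the members in the Mecom- and Hlf-led cluster. There the summed level of the 12 HSC/MPP markers was 4256 CPM in WT and 2949 CPM in cKO cells (−0.53), and 10 of the 12 were lower in cKO cells, beside 62.7% of genes, 9 of them with intervals below 0. Angpt1 supplied 20551 of the 50551 WT UMIs of the list, at 1730 CPM in WT and 1276 CPM in cKO cells (−0.44). Hlf was at 279 and 140 CPM and Meis1 at 876 and 476 CPM (−0.88), while Mycn (−0.03), Hoxa9 (0.15) and Slamf1 (0.46) had intervals that held 0. In the Cd34-led cluster the same 12 markers were at 859 CPM in WT and 808 CPM in cKO cells (−0.09), with 7 of the 9 that had 50 UMIs lower, beside 63.0% of genes. Hlf (−0.67), Meis1 (−0.61) and Cd34 (−0.17) had intervals below 0 there, and Angpt1 (0.36) and Hoxa9 (0.29) intervals above 0. Whether the cKO cluster held fewer of the cells richest in both stem cell and immediate early RNA, or less of each RNA per cell, cannot be told apart from summed UMIs, and its part in the result was not tested.

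Markers of other cell types also moved in HSC/MPP-like cells. The 8 monocyte markers were at 609 CPM in WT and 355 CPM in cKO cells, with 6 of the 7 that had 50 UMIs lower, beside 66% of genes. The 9 macrophage markers were at 25.1 CPM in WT and 6.88 CPM in cKO cells, with 6 of the 6 that had 50 UMIs lower. The part of these cells or their free RNA in the members' ratios was not tested. Of the 9 members measured, Fos (469 CPM) and Atf3 (77.3 CPM) were higher in WT monocyte-like than in WT HSC/MPP-like cells, and the others, Egr1 at 20.8 CPM and Nr4a1 at 13.8 CPM among them, were lower. The 163 WT macrophage-like cells held Egr1 at 133 CPM, Fos at 404 CPM, Fosb at 489 CPM and Atf3 at 109 CPM, all above WT HSC/MPP-like cells, and Nr4a1 at 18.4 CPM and Jun at 393 CPM, below them.

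To compare cells rather than sums, each cell was thinned to 2000 UMIs, which kept 704 WT and 473 cKO HSC/MPP-like cells and left out 9 and 0. Among them 18.5% of WT and 4.02% of cKO cells had a UMI of Egr1, and 12.9% and 2.96% had one of Nr4a1. Fos was found in 43.5% of WT and 23.9% of cKO cells, Fosb in 30.7% and 16.1%, Atf3 in 7.39% and 2.11% and Jun in 59.4% and 48.4%. These shares pool both clusters of the class, whose mix differed between the libraries. In the Mecom- and Hlf-led cluster 127 of 512 WT and 18 of 236 cKO cells had Egr1, and 335 and 121 had Jun. In the Cd34-led cluster 3 of 192 WT and 1 of 237 cKO cells had Egr1, and 83 and 108 had Jun. The part of the mix in the pooled shares was not tested. In erythroblast-like cells, the class of lowest summed level, the share with Egr1 was 0.652% in WT and 0.622% in cKO cells. The share with Fos there was 3.20% and 2.25%. Thinning kept 1533 of 1852 WT and 1287 of 1589 cKO erythroblast-like cells. Median depths of the whole class before thinning were 20775 UMIs in WT and 8676 UMIs in cKO cells. So the HSC/MPP-like shares of Egr1 and Fos were above the level in erythroblast-like cells in both libraries. Without thinning, where the cKO cells are deeper (median 29332 against 24322 UMIs), Egr1 was found in 54.4% of WT and 25.8% of cKO cells, but Jun, Junb and Jund were not less frequent (96.3% and 96.6% for Jun). With Jun in nearly every cell of both libraries, its unthinned share had little room to differ.

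A UMI of at least 3 of the 10 genes was found in 49.9% of WT HSC/MPP-like cells (exact binomial interval 46.1 to 53.6) and in 22.2% of cKO cells (18.5 to 26.2). Thinned to 4000 UMIs the shares were 73.4% and 52.5%, and without thinning 96.8% and 96.0%. After thinning to 2000 UMIs the share was 49.0% in WT and 20.9% in cKO megakaryocyte-like cells, and 1.04% and 0.777% in erythroblast-like cells. At 2000 UMIs, no UMI of any member was found in 9.80% of the WT and 18.6% of the cKO HSC/MPP-like cells. By cluster these shares were 6.45% and 13.6% in the Mecom- and Hlf-led and 18.75% and 23.6% in the Cd34-led cluster. The HSC/MPP-like shares with at least 3 genes pool both clusters, and the part of their mix was not tested.

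**Figure D4:**
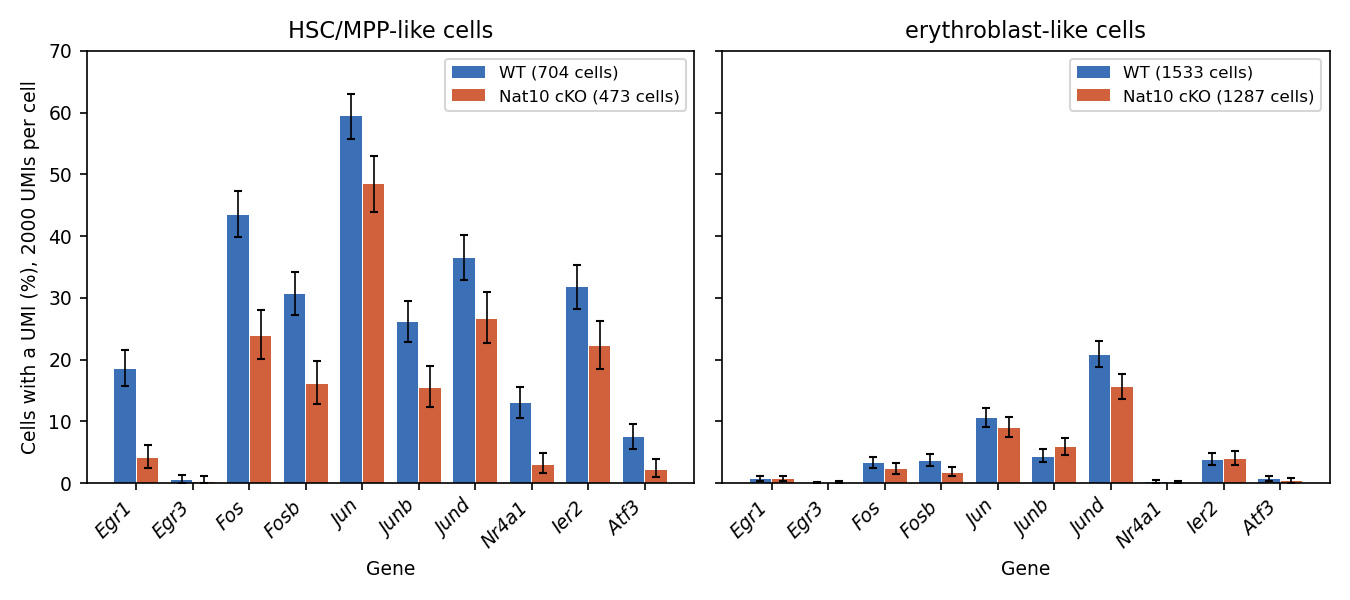
Share of cells with a UMI of each member after thinning every cell to 2000 UMIs, in percent, in HSC/MPP-like cells (left) and erythroblast-like cells (right), with bars for the WT and cKO libraries and exact binomial 95% intervals. On the left Egr1 stands at 18.5% and 4.02% and Jun at 59.4% and 48.4%, and on the right Egr1 stands at 0.652% and 0.622%. The left side pools both HSC/MPP-like clusters, whose mix differed between the libraries.

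Whether the members sat in the same cells was read from the thinned HSC/MPP-like cells. In the WT library 69.3% of HSC/MPP-like cells with Fos also had Jun, against 51.8% of cells without Fos. In the cKO library these shares were 47.8% of 113 cells (interval 38.3 to 57.4) and 48.6%. In the Mecom- and Hlf-led cluster they were 71.9% and 59.0% in WT and 54.5% and 50.3% in cKO cells. In the Cd34-led cluster they were 56.0% and 38.7% in WT and 41.4% and 46.9% in cKO cells. Fosb was found in 37.9% of Fos-positive and 25.1% of Fos-negative WT cells, and in 23.0% and 13.9% of the cKO cells. Egr1-positive WT cells held Nr4a1 in 23.8% of cases, against 10.5% of the Egr1-negative ones. In cKO cells the shares were 15.8% of 19 cells and 2.42%. The Mecom- and Hlf-led cluster held 127 of the 130 Egr1-positive WT cells. Within it the WT shares were 24.4% (interval 17.2 to 32.8) and 14.5% (11.2 to 18.5). The part of the cluster mix in the pooled shares was not tested. The difference between the libraries was not tested.

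Megakaryocyte-like cells had the lowest ratio of the summed level among the 11 classes, −1.11 (interval −1.14 to −1.07). All 10 genes were measured and lower in cKO cells, beside 57.9% of genes below 0, and 6 of 10 had a log2 ratio of −1 or less beside 3.56% of 11364 genes, a count of 4 under TMM scaling (Jun at −0.98 and Egr3 at −0.94). Fosb was at 491 CPM in WT and 148 CPM in cKO cells (−1.73), Egr1 at 150 and 46.1 CPM (−1.70), and Jun at 861 and 406 CPM (−1.09). Junb was at 110 and 103 CPM, with an interval (−0.24 to 0.04) that held 0, and was not lower under TMM scaling. The mix of clusters differed: a cluster led by the platelet gene Ppbp held 69 WT and 161 cKO cells, with a summed ratio of −0.40. HSC/MPP markers in these cells were at 4330 CPM in WT and 2359 CPM in cKO cells. The WT level was near the 4256 CPM of the HSC/MPP-like cluster led by Mecom and Hlf. The part of these markers in the ratios was not tested.

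Lymphoid progenitor-like and monocyte-like cells also had each measured member lower in the cKO library, except that in lymphoid progenitor-like cells Jun (0.080 and 0.026) and Ier2 (0.015 and 0.020) were higher when clustered at Leiden resolutions 1.0 and 2.5. In lymphoid progenitor-like cells (231 WT, 122 cKO) 9 of 9 measured members were lower beside 59.6% of genes, 5 at −1 or less beside 2.6% of genes, a count of 2 with the WT mix of clusters and of 3 under 5 other settings. Fosb was at 203 CPM in WT and 83.8 CPM in cKO cells (−1.28), Nr4a1 at 104 and 44.1 CPM (−1.24), and Atf3, Egr1 and Fos followed at −1.18, −1.06 and −1.01. Jun, at 455 and 417 CPM, had a ratio of −0.13. In monocyte-like cells (1167 and 642) all 9 measured members were lower beside 58.8% of genes, 4 at −1 or less beside 2.23% of genes. Atf3 was at 77.3 CPM in WT and 31.1 CPM in cKO cells (−1.31), Nr4a1 at 13.8 and 5.76 CPM (−1.25), Egr1 at 20.8 and 8.76 CPM (−1.25) and Fosb at 145 and 62.5 CPM (−1.21).

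T, NK and innate lymphoid-like cells, numbering 413 (WT) and 579 (cKO), had a higher summed level in cKO cells by 0.26 on the log2 scale, although each of the 3 clusters in them was lower. In the Il2ra- and Gata3-led cluster the summed level was 13159 CPM in 90 WT cells and 12621 CPM in 239 cKO cells (−0.06). In the Xcl1- and Ncr1-led cluster it was 4667 CPM in WT and 4380 CPM in cKO cells (−0.09), and in the Ccl5-led cluster 3630 and 2419 CPM (−0.59). Weighing the cKO clusters by the WT mix gave −0.21. Within the Il2ra-led cluster Jun was higher in cKO cells, at 2321 CPM in WT and 3040 CPM in cKO cells (0.39), as were Jund (0.36) and Ier2 (0.42), whereas Nr4a1 was at 296 CPM in WT and 160 CPM in cKO cells (−0.88). Over the class 1 of 9 measured members was lower, Nr4a1, beside 44% of genes below 0, and none of the 9 reached −1 beside 1.08% of genes.

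**Figure D5:**
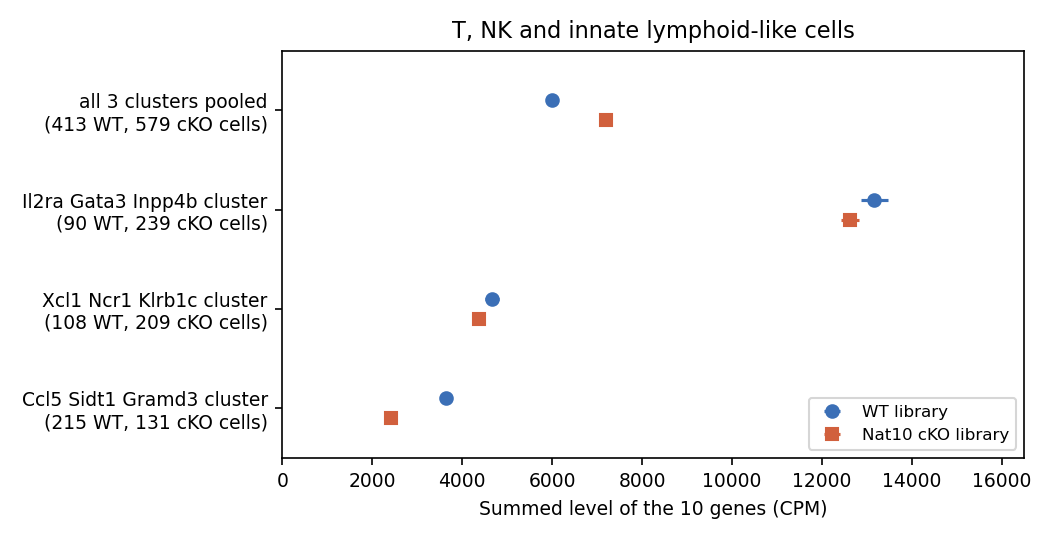
Summed level of the 10 genes, in CPM, in T, NK and innate lymphoid-like cells pooled and in each of their 3 clusters, with circles for the WT and squares for the cKO library and 95% counting intervals. The pooled square lies right of the pooled circle (7191 against 5993 CPM) while each cluster's square lies left of its circle.

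Plasma-like cells (163 and 120) also had higher levels in cKO cells, with Jun at 1152 CPM in WT and 1776 CPM in cKO cells (0.62), Ier2 at 177 and 258 CPM (0.54) and Junb at 261 and 363 CPM (0.47). Egr1 was at 334 and 323 CPM, 2 of the 8 measured members were lower beside 73.9% of genes, and 0 were at −1 or less beside 6.48%. Different clusters held most of the class: an Igha-led cluster held 119 of the WT and 23 of the cKO cells, and a Jchain- and Igkc-led cluster 44 and 97. The median depth was 1969 UMIs in WT and 16150 UMIs in the cKO cells. The summed ratio over the class was 0.42 and reached 1.21 with every cell weighed alike. In the Jchain- and Igkc-led cluster the summed level was 5171 CPM in WT and 5927 CPM in cKO cells (0.20).

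In basophil and mast-like cells (560 and 529) Fosb was at 1099 CPM in WT and 681 CPM in cKO cells (−0.69) and Egr1 at 500 and 373 CPM (−0.42), while Atf3, Ier2, Nr4a1 and Egr3 had intervals that held 0; 7 of 10 were lower beside 56.6% of genes, 6 with intervals below 0, and 0 of 10 were at −1 or less beside 0.889% of genes. In GMP-like cells (1295 and 1138) 8 of 9 measured members were lower beside 65.2% of genes, and 7 under TMM scaling, where Ier2 went from −0.11 to 0.029. Egr1 was at 8.35 CPM in WT and 3.04 CPM in cKO cells (−1.45), the 1 of 9 measured members at −1 or less beside 2.4% of genes (2 when clustered with the members), and Junb was at 52.1 and 59.0 CPM (0.18). Stromal and endothelial-like cells (227 and 369) had 9 of 9 measured members lower beside 49.5% of genes, 5 with intervals below 0, with Egr1 at 123 and 52.5 CPM (−1.23) and Fosb at 272 and 134 CPM (−1.02), 2 of 9 at −1 or less beside 2.34% of genes (1 to 4 over the alternatives), at median depths of 2612 UMIs in WT and 4169 UMIs in the cKO cells.

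The erythroid classes had the lowest summed level of the 11 classes, but not the lowest level of each member. Egr1 in the cKO library was lowest in GMP-like cells. Ier2 was lower in stromal and endothelial-like cells (34.7 CPM in WT and 31.4 CPM in cKO cells) than in erythroid progenitor-like cells (37.6 and 43.5 CPM). In erythroblast-like cells (1852 and 1589) 7 of 8 measured members were lower beside 59.3% of genes, 5 with intervals below 0, and 5 to 8 were lower over the alternatives. Fosb was at 18.2 CPM in WT and 8.69 CPM in cKO cells (−1.06), Fos at 16.3 and 9.62 CPM (−0.76) and Egr1 at 4.03 and 3.84 CPM, whose interval held 0. At −1 or less were 2 of 8 measured members beside 1.24% of genes, and 1 under TMM scaling. In erythroid progenitor-like cells (949 and 1727) 5 of 9 measured members were lower beside 61.6% of genes. Nr4a1, from 50 and 22 UMIs, was the 1 of 9 at −1 or less beside 1.33% of genes, and Fosb was at 34.6 CPM in WT and 23.8 CPM in cKO cells (−0.54). Egr1 (0.31), Ier2 (0.21), Junb (0.13) and Jun (0.09) were higher in cKO cells in these cells, but their signs turned under other clusterings or with doublets kept.

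Other genes of the same signalling were taken from lists. Their counts were not recomputed with clusters named without the rule on leading markers. Of 39 companion immediate early genes, 34 were measured in HSC/MPP-like cells and 28 were lower, beside 66% of all genes, with a median of −0.64 beside −0.17, and 8 were at −1 or less, beside 4.56%. Lowest were Nr4a3, a receptor related to Nr4a1, at 10.6 CPM in WT and 2.11 CPM in cKO cells (−2.31), the zinc-finger factor Klf4 at 19.2 and 5.62 CPM (−1.77) and the kinase gene Plk2 at 5.23 and 1.68 CPM (−1.61). Highest were Ier5l (0.54, interval holding 0), Gadd45b at 14.7 and 20.1 CPM (0.45) and Myc at 89.2 and 102 CPM (0.19).

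Genes of the kinases and factors that switch immediate early genes on were lower for 24 of 26 beside the same 66%, with a median of −0.41. Ratios in these cells fell with gene length, to a median of −0.44 for genes over 100 kb. The part of gene length in this list was not tested. Mef2c was at 1005 CPM in WT and 607 CPM in cKO cells (−0.73), Mef2d at 118 and 72.0 CPM (−0.71) and Rps6ka5, a histone kinase of the MAP kinase pathway, at 259 and 165 CPM (−0.65). Srf, the serum response factor gene, was at 7.29 and 7.65 CPM (0.07, interval holding 0), Map2k2 at 121 and 144 CPM (0.25) and Mapk3 at 31.4 and 28.2 CPM (−0.15, interval holding 0). Of the partners and co-repressors of the members, 10 of 11 measured were lower beside 66%, with a median of −0.28, near the −0.17 of all genes. Maf was at 3.80 CPM in WT and 1.19 CPM in cKO cells (−1.64), Atf7 at 34.9 and 22.7 CPM (−0.62) and Nab1, a co-repressor of Egr proteins, at 49.0 and 36.7 CPM (−0.42). At the other end Batf stood at 15.4 and 21.7 CPM (0.50), Batf2 at −0.08 and Nab2 at −0.10. With TMM scaling 6 of the 11 partners remained below 0.

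Most heat shock genes, which also respond to cell handling, were higher in cKO cells. Of 13 measured in HSC/MPP-like cells 2 were lower and 11 higher in cKO cells, beside 66% of all genes lower. Their median was 0.42, beside −0.17 over all genes. Hsph1 was at 59.3 CPM in WT and 94.4 CPM in cKO cells (0.67), Hspa1b at 6.92 and 10.4 CPM (0.59) and Hspe1 at 554 and 826 CPM (0.58). Dnajb4 was lowest, at 27.8 and 20.8 CPM (−0.42), followed by Bag3 (−0.12) and Hspa4l (0.01). The part of cell handling in these ratios was not tested.

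Ratios in these libraries varied with the length of a gene, and the members are mostly short. Spans taken from GENCODE vM21 ran from 1522 bases for Ier2 and 1668 bases for Jund to 20527 bases for Nr4a1 and 47744 bases for Atf3, and 8 of the 10 lie under 10 kb. In HSC/MPP-like cells the median log2 ratio was 0.05 for 1336 genes of 3 kb or less, 0.04 for 2488 genes of over 3 to 10 kb, −0.17 for 7555 genes of over 10 to 100 kb and −0.44 for 1544 longer genes. Fos, with 3384 bases, and Egr1, with 5162 bases, thus stood at −1.07 and −2.44 in a length range whose median was 0.04. With clusters named without the rule on leading markers, Egr1 stood at −1.23.

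Across the 22 values of 11 classes in 2 libraries the members followed each other to different degrees. The highest Pearson's r between members was 0.94 for Jun with Fos, and the lowest 0.34 for Nr4a1 with Egr3. Outside the 10 genes, the most alike to their summed level of the 7301 genes averaging 20 CPM or more were Kif21b (0.96), Zfp36 (0.94), Cd274 (0.94), Dnajb9 (0.93) and Rnf19b (0.93). For Egr1 they were Prkca (0.87), Zbtb20 (0.86), H2-T23 (0.86), Basp1 (0.85) and Inpp4b (0.85). These values share libraries and depth and are given as a description.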

How the data were processed

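Lineage-depleted marrow cells gave 1 WT library and 1 Nat10 cKO library. The deposited values are raw UMI counts per gene and barcode, made by the authors with Cell Ranger 7.1.0 on mouse build mm39, per the submitters' processing notes. How barcodes were called cells, and the annotation, are not given in the sources used here. Barcodes needed 1000 UMIs, 500 genes and a mitochondrial share of at most 10%, which 12537 WT and 11239 cKO barcodes met. Scrublet in scanpy 1.11.5 called 592 (4.72%) and 544 (4.84%) doublets, which were removed. Both libraries were clustered together without the members and companion lists (2000 variable genes, 30 principal components, 15 neighbours, Leiden resolution 1.5). A cluster took the class with most markers among its 10 leading genes, with at least 3 detected. Of 50 clusters 39 were named, into 17 classes. Unnamed clusters, 11 in number, made up 29.7% (WT) and 26.2% (cKO); 5 of them, with 9.34% and 12.1%, stayed unnamed because no leading gene was a marker, a rule made once the clusters were known.

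UMIs were summed per class and library and scaled to CPM. Log2 ratios had 0.5 added to each sum, with exact conditional binomial intervals; levels have exact Poisson and shares exact binomial (Clopper-Pearson) intervals. UMIs of 1 library are not independent replicates. Genes needed 50 UMIs in both libraries together. TMM factors came from edgeR 4.0.16, median-of-ratios factors from DESeq2 1.42.0, and no test was run with either. Named genes were the members, Nat10, the 3 lowest and 3 highest of each list in HSC/MPP-like cells, and the 5 genes most alike to the summed level and to Egr1; markers and other genes were named after their values were seen. The ratio and interval code was checked on simulated counts. Ddit3 was left out because 2 entries share its symbol. Alternatives were other scalings, clusterings, doublet and cell filters, weightings and thinning depths. The members and lists were chosen with earlier results of these data known, so their counts are a description and not independent evidence.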

Additional observations from a re-analysis of the deposited data

Results flagged for a closer look

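Several members had a log2 ratio whose counting interval lay above 0 in a class while it lay below 0 in HSC/MPP-like cells; with 1 library per genotype the difference between the classes was not tested. In plasma-like cells these were Fos (0.41), Fosb (0.37), Jun (0.62), Junb (0.47), Jund (0.26) and Ier2 (0.54), and each stayed above 0 under all 10 alternatives. Their WT and cKO cells came mostly from different clusters, at median depths of 1969 and 16150 UMIs. In T, NK and innate lymphoid-like cells they were Jun (0.76), Jund (0.44) and Ier2 (0.46), which stayed above 0 under all 10 alternatives, and Fosb (0.097), which was −0.49 under the WT cluster mix. In GMP-like cells Junb (0.18) stayed above 0 under all 10.

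In erythroid progenitor-like cells Egr1 (0.31), Jun (0.087), Junb (0.13) and Ier2 (0.21) lay above 0, and each turned sign under 2 to 4 of the 10 alternatives.

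Barcodes over the mitochondrial limit that met the UMI and gene minimums, 341 WT and 595 cKO, entered no comparison. Their summed level of the 10 genes was 403 CPM in WT and 393 CPM in cKO cells, above 0 in both.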

How the results depend on the processing

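No paired analysis was possible because each genotype has 1 library, and for the same reason no library could be left out. In HSC/MPP-like cells the 9 measured members stayed below 0 under all 10 alternatives for the ratios, among them TMM and median-of-ratios scaling, Leiden resolutions 1.0 and 2.5, clustering with the members and companion lists, called doublets kept and a stricter cell filter (at least 3000 UMIs, 1000 genes, at most 5% mitochondrial UMIs). The others were weighing every cell alike, reweighting the clusters to the WT mix, and naming clusters without the leading marker rule, which was chosen after seeing the data. Egr1 there ranged from −2.73 to −1.23, the value furthest from the rest coming from naming without that rule. Over all classes, 804 of the 1090 alternative values of single members lay within the counting interval of the reported ratio, 262 outside it on the same side of 0 or with a reported interval that held 0, and 24 turned sign from a reported interval that did not hold 0. Under TMM scaling the median of the upstream list in HSC/MPP-like cells moved from −0.41 to −0.24 and that of the heat shock list from 0.42 to 0.59. The lists and the thinned shares were not recomputed under other clusterings or without the leading marker rule. The causes of the changes below were not tested.

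In all kept cells the summed ratio, −0.53, became −0.42 (TMM, median-of-ratios), −0.52 (doublets kept), −0.19 (cells weighed alike) and −0.39 (WT cluster mix). In erythroblast-like cells the summed ratio, −0.34, became −0.27 (TMM, median-of-ratios) and −0.40 (doublets kept). In erythroid progenitor-like cells the summed ratio, −0.040, became 0.039 (TMM, median-of-ratios), −0.21 (resolution 1.0), −0.23 (resolution 2.5), −0.10 (members clustered), −0.18 (doublets kept), −0.12 (no leading marker), −0.093 (cells weighed alike) and −0.072 (WT cluster mix). In GMP-like cells the summed ratio, −0.29, became −0.15 (TMM, median-of-ratios), −0.32 (members clustered) and −0.34 (WT cluster mix). In monocyte-like cells the summed ratio, −0.65, became −0.58 (TMM, median-of-ratios), −0.61 (resolution 1.0), −0.82 (members clustered), −0.56 (doublets kept) and −0.72 (cells weighed alike). In HSC/MPP-like cells the summed ratio, −0.79, became −0.62 (TMM, median-of-ratios), −0.96 (resolution 2.5), −0.88 (doublets kept), −0.61 (no leading marker), −1.03 (cells weighed alike) and −0.70 (WT cluster mix). In basophil and mast-like cells the summed ratio, −0.24, became −0.18 (TMM, median-of-ratios), −0.28 (resolution 2.5, members clustered), −0.17 (cells weighed alike) and −0.12 (WT cluster mix). In T, NK and innate lymphoid-like cells the summed ratio, 0.26, became 0.22 (TMM), 0.21 (median-of-ratios), 0.14 (doublets kept), 0.34 (cells weighed alike) and −0.21 (WT cluster mix). In megakaryocyte-like cells the summed ratio, −1.11, became −1.01 (TMM, median-of-ratios), −1.20 (resolution 1.0) and −1.03 (cells weighed alike). In stromal and endothelial-like cells the summed ratio, −0.59, became −0.82 (cells weighed alike) and −0.48 (WT cluster mix). In lymphoid progenitor-like cells the summed ratio, −0.57, became −0.47 (TMM, median-of-ratios), −0.45 (resolution 1.0), −0.51 (resolution 2.5, WT cluster mix) and −0.49 (cells weighed alike). In plasma-like cells the summed ratio, 0.42, became 0.69 (TMM, median-of-ratios), 0.30 (resolution 1.0, resolution 2.5), 0.34 (members clustered), 0.31 (doublets kept), 0.29 (stricter filter), 1.21 (cells weighed alike) and 0.22 (WT cluster mix).

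In all kept cells the count at −1 or less, 2, became 1 (WT cluster mix). In erythroblast-like cells the count at −1 or less, 2, became 1 (TMM, median-of-ratios, members clustered, no leading marker, cells weighed alike). In GMP-like cells the count at −1 or less, 1, became 2 (members clustered). In HSC/MPP-like cells the count at −1 or less, 4, became 2 (no leading marker). In stromal and endothelial-like cells the count at −1 or less, 2, became 1 (resolution 2.5, stricter filter, WT cluster mix) and 4 (cells weighed alike). In lymphoid progenitor-like cells the count at −1 or less, 5, became 3 (TMM, median-of-ratios, resolution 1.0, resolution 2.5, cells weighed alike) and 2 (WT cluster mix). In erythroid progenitor-like cells the count of lower members, 5, became 8 (resolution 1.0) and 9 (resolution 2.5, doublets kept). In T, NK and innate lymphoid-like cells the count of lower members, 1, became 2 (TMM, median-of-ratios, stricter filter), 4 (doublets kept) and 6 (WT cluster mix). In plasma-like cells the count of lower members, 2, became 1 (TMM, median-of-ratios) and 0 (cells weighed alike).

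In all kept cells the log2 ratio of the share with at least 3 members, −0.58, became −0.39 (at least 2 members) and −0.48 (thinned to 4000 UMIs). In erythroid progenitor-like cells the log2 ratio of the share with at least 3 members, 0.073, became 1.93 (at least 4 members). In GMP-like cells the log2 ratio of the share with at least 3 members, −0.47, became −1.05 (at least 4 members). In monocyte-like cells the log2 ratio of the share with at least 3 members became −0.47 (at least 2 members), −1.44 (at least 4 members) and −0.39 (thinned to 4000 UMIs). In HSC/MPP-like cells the log2 ratio of the share with at least 3 members, −1.16, became −0.58 (at least 2 members), −1.92 (at least 4 members) and −0.48 (thinned to 4000 UMIs). In megakaryocyte-like cells the log2 ratio of the share with at least 3 members, −1.22, became −0.55 (at least 2 members), −2.05 (at least 4 members) and −0.69 (thinned to 4000 UMIs).

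Ratios of single members that turned sign went from their reported value as follows. Egr3 in all kept cells (−0.41) turned to 0.11 (cells weighed alike). Junb in all kept cells (−0.15) turned to 0.14 (cells weighed alike). Egr1 in erythroid progenitor-like cells (0.31) turned to −0.14 (resolution 1.0), −0.42 (resolution 2.5), −0.17 (members clustered) and −0.057 (doublets kept). Jun in erythroid progenitor-like cells (0.087) turned to −0.16 (resolution 1.0), −0.32 (resolution 2.5), −0.093 (doublets kept) and −0.026 (no leading marker). Junb in erythroid progenitor-like cells (0.13) turned to −0.088 (resolution 1.0), −0.096 (resolution 2.5), −0.15 (members clustered) and −0.12 (doublets kept). Ier2 in erythroid progenitor-like cells (0.21) turned to −0.0033 (resolution 2.5) and −0.025 (doublets kept). Ier2 in GMP-like cells (−0.11) turned to 0.029 (TMM) and 0.031 (median-of-ratios). Jun in basophil and mast-like cells (−0.13) turned to 0.0037 (cells weighed alike). Fosb in T, NK and innate lymphoid-like cells (0.097) turned to −0.49 (WT cluster mix). Jun in lymphoid progenitor-like cells (−0.13) turned to 0.080 (resolution 1.0) and 0.026 (resolution 2.5). Ier2 in lymphoid progenitor-like cells (−0.19) turned to 0.015 (resolution 1.0) and 0.020 (resolution 2.5). The share with Jund in all kept cells (−0.16) turned to 0.038 (no thinning). The share with Ier2 in all kept cells (−0.17) turned to 0.048 (no thinning). The share with Jun in erythroid progenitor-like cells (0.37) turned to −0.0023 (thinned to 4000 UMIs) and −0.071 (no thinning). The share with Jun in HSC/MPP-like cells (−0.29) turned to 0.0045 (no thinning), where nearly every cell of both libraries had it. The share with Junb in HSC/MPP-like cells (−0.75) turned to 0.011 (no thinning). The share with Jund in HSC/MPP-like cells (−0.45) turned to 0.0044 (no thinning). The share with Ier2 in lymphoid progenitor-like cells (−0.68) turned to 0.015 (no thinning).

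Depth limits Egr3, which had under 50 UMIs in 8 of the 11 classes, Nr4a1 in erythroblast-like and plasma-like cells, and Atf3 in plasma-like cells. The interval of a ratio covers counting error only, and the spread between animals is unknown.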

Other observations

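In classes too small to compare, the summed level of the 10 genes was 2551 CPM in 67 WT and 1907 CPM in 27 cKO conventional dendritic-like cells, 2104 CPM in 163 WT and 1499 CPM in 19 cKO macrophage-like cells, and 1864 and 1393 CPM in 34 and 32 neutrophil-like cells. Eosinophil-like cells held 1565 CPM in 170 WT and 1106 CPM in 39 cKO cells. Pro-B and pre-B-like ones, 13 WT and 140 cKO, held 1313 and 1751 CPM. The unnamed cells held 855 CPM in WT and 564 CPM in cKO cells. Called doublets, left out elsewhere, held 1120 and 903 CPM.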
